A study of Mus musculus with 4 samples.

Results

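Mecom was followed as a single gene, 1 of the 32285 genes in the deposited feature lists, selected by its symbol. It was described across the endothelial, blood, mesenchymal and other cell classes of the aorta-gonad-mesonephros region (AGM) at E11.5, where the first haematopoietic stem cells of the mouse arise. The cells came from C57BL/6J mice and were sorted as positive for CD31, the surface protein encoded by Pecam1. TMRM, a dye that mitochondria with a higher membrane potential take up more of, split them at sorting into a low gate (MMPlow) and a high gate (MMPhigh), with 2 single-cell libraries each. The study asked how transcription differs between cells of low and high mitochondrial activity as stem cell function separates. No further allele, treatment or time point is named, and the labels do not say whether the 2 libraries of a gate came from separate pools of embryos. All p-values therefore rest on sums from these libraries, whose spread may be technical. Tests between the gates measure the spread between libraries. Tests between classes take library as a term and measure the spread that remains between the class sums.

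Mecom encodes a zinc finger transcriptional regulator of the PR domain family, made as a long form with a PR domain (MDS1-EVI1, also called PRDM3) and as a short form without it (EVI1). The long form starts at a distal promoter and the short one at a proximal promoter. The protein binds corepressors such as CtBP and is known from the maintenance of blood stem cells, from endothelium around the embryonic aorta and from myeloid leukaemia. Its closest relative is Prdm16.

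In the mouse genome build GRCm38, Mecom (ENSMUSG00000027684) lies on the minus strand at chr3:29951296-30548008 by GENCODE vM21. The libraries were made from the 3' end of transcripts, so the counts do not separate the distal from the proximal start. The RefSeq promoter tables on GRCm38 hold both of these starts, and the window of the proximal start lies inside an annotated exon and is not printed. The part of the distal window before annotated exons still lies inside the GENCODE span of the gene, which begins farther upstream. It is shown beside that of Prdm16, the closest relative of Mecom, which was also highest in arterial-like endothelium. Among the classes compared below Prdm1 was highest there too, and its window is not shown. Each sequence is the minus strand read 5′ to 3′, and capitals mark CG pairs, the sites of DNA methylation.
Mecom, distal start, chr3:30509823-30510009: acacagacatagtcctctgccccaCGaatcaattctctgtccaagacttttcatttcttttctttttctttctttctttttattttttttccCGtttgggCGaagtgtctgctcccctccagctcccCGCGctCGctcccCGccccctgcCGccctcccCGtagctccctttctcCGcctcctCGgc
Prdm16, chr4:154636874-154637123: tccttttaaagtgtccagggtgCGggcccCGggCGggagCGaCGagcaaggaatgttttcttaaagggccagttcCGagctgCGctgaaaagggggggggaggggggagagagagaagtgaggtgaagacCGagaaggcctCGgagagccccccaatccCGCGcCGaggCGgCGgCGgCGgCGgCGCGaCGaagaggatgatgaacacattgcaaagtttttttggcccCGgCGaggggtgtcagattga
The 187 bases of Mecom held 11 CG pairs and 54.0% G or C, against a median of 51.3% over all RefSeq promoter windows of that length. The 250 bases of Prdm16 held 22 CG pairs and 62.4% G or C, against a median of 52.4%. Short motifs of 4 haematopoietic and endothelial factor families were searched on both strands: TGATAA of the GATA family, TGTGGT of the RUNX family, CCGGAA of the ETS family and ACAATG of the SOX family. No match was found in either window. Of 32851 promoter windows of 187 bases, 6.37%, 10.8%, 7.26% and 8.17% held them, in that order, and 7.94%, 14.0%, 12.03% and 10.7% of those of 250 bases.

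The 4 libraries differed in size and depth. After filtering, the MMPlow libraries kept 15718 and 18444 cells of 59928 and 23715 barcodes. The MMPhigh libraries kept 4403 and 3392 of 13939 and 4288. Median depth per retained cell was 3082, 3641 and 3685 unique molecular identifiers (UMIs, each counting 1 captured RNA molecule) in the first 3 libraries, and 23553 in MMPhigh 2, which stands apart. Levels are therefore given in CPM, the Mecom UMIs scaled to the total UMIs of the cells summed, and shares of cells with a Mecom UMI after thinning each cell to 2000 UMIs. Between 14 and 369 barcode sequences were shared by pairs of libraries. Pecam1 was at 275 and 262 CPM in MMPlow and at 24.9 and 22.1 CPM in MMPhigh. Without thinning, Pecam1 UMIs were found in 52.4% and 54.9% of MMPlow cells, but in 10.7% and 27.1% of MMPhigh cells. The last share comes from the deepest library. In most MMPhigh cells the CD31 label was thus not matched by Pecam1 RNA. Of MMPlow cells not classed as endothelial, 29.7% and 32.9% held a Pecam1 UMI. Cells were clustered with Mecom left out, and 14 classes were named from marker genes, with "-like" marking that the name rests on markers alone.

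Mecom was abundant in the MMPlow gate and spread over several cell types. Over all retained cells its level was 398 and 383 CPM in MMPlow 1 and 2, and 86.2 and 69.4 CPM in MMPhigh 1 and 2. Before filtering, over all barcodes, it was 294 and 382 CPM in MMPlow and 76.1 and 67.1 CPM in MMPhigh, so the MMPlow libraries were closer after the filter. After thinning, 37.7% and 37.1% of MMPlow cells and 5.50% and 6.90% of MMPhigh cells held a Mecom UMI. Endothelial-like cells were 48.2% of MMPlow cells and held 74.2% ± 0.55 (SD, n = 2) of the Mecom UMIs there. Arterial endothelial-like cells were 3.28% of the cells and held 16.4% ± 1.34 (SD, n = 2) of the UMIs. In MMPhigh the endothelial share of Mecom UMIs was 4.20% ± 0.154, and mesenchymal-like cells held 53.8% ± 1.29 (SD, n = 2) of the UMIs.

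**Figure D1:**
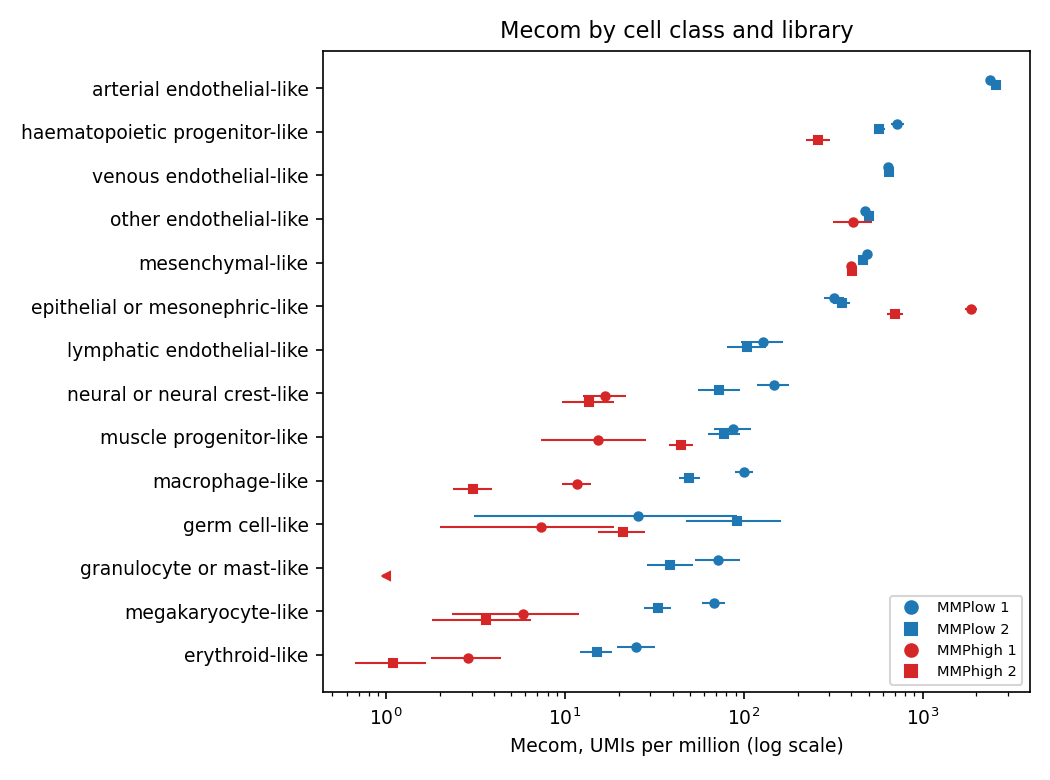
Mecom level by cell class on a log scale, in CPM, with 1 point for each library of at least 10 cells and bars for the exact 95% Poisson interval of the count (counting error only). The left-pointing mark stands for a count of 0. Arterial endothelial-like cells of MMPlow are highest, at 2376 and 2562, and the MMPhigh points of the blood classes lie below their MMPlow points.

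The MMPlow order ran from arterial endothelium through progenitors, other endothelium and mesenchyme down to erythroid cells. Mean levels over the 2 libraries were 2469 ± 131 CPM in arterial-like, 648 ± 105 in haematopoietic progenitor-like and 643 ± 2.93 in venous-like cells. They were 488 ± 17.9 in other endothelial-like, 476 ± 19.7 in mesenchymal-like and 337 ± 23.6 in epithelial-like cells. Lymphatic endothelial-like cells had 116 ± 17.1 CPM, and the neural, muscle progenitor, macrophage, germ cell, granulocyte or mast and megakaryocyte classes had mean levels between 110 and 50.6. Erythroid-like cells had 20.05 ± 7.10 CPM (all SD, n = 2). Of the 13 steps between neighbours in this order, 3 were called by the quasi-likelihood test of edgeR (adjusted p under 0.05). These were arterial over progenitor (log2 difference 2.13, SE 0.240, edgeR adjusted p = 4.15e-06), epithelial over lymphatic (1.496, SE 0.383, edgeR adjusted p = 0.0116) and megakaryocyte over erythroid (1.12, SE 0.388, edgeR adjusted p = 0.0236). In these comparisons 39.2%, 20.3% and 56.5% of all genes tested were called. The other 10 neighbouring pairs had edgeR adjusted p-values between 0.254 and 0.998 for Mecom. From progenitor against venous down to granulocyte or mast against megakaryocyte, those pairs had 35.5%, 31.2%, 55.0%, 18.6%, 25.1%, 24.3%, 49.6%, 18.4%, 15.1% and 29.3% of genes called. With no doublets removed, 4 of the 13 steps changed their call. Venous exceeded other endothelial (0.31, adjusted p = 0.00778), mesenchymal exceeded epithelial (0.48, adjusted p = 0.0139) and megakaryocyte over erythroid missed the threshold (0.43, adjusted p = 0.0877). The other was muscle progenitor against macrophage, at 0.15 and not called in the reported values, which turned to -0.79 with an adjusted p of 0.00280. Of the 10 steps not called in the reported values, 8 changed sign under at least 1 alternative.

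Arterial endothelium stood out. In arterial-like cells Mecom reached 2376 CPM in MMPlow 1 (exact 95% Poisson interval 2301 to 2453, 504 cells) and 2562 in MMPlow 2 (2496 to 2629, 620 cells). Venous-like cells had 641 CPM (620 to 663, 1552 cells) and 645 CPM (625 to 665, 1520 cells). Both arterial values lay above both venous values, and the libraries of a class differed far less than the classes did. After thinning, 92.5% and 94.0% of arterial-like cells held a Mecom UMI, against 58.8% and 59.5% of venous-like cells. The shares before thinning were 96.4% and 97.6% against 68.6% and 74.5%. Erythroid-like cells, taken as a class that should lack the gene, gave 4.12% and 2.998% at the same thinned depth, from median depths of 11462 and 13670 UMIs against 2732 and 3194 in arterial-like cells. A median arterial-like cell held 6 and 8 Mecom UMIs in the 2 libraries and the highest held 42 and 38, whereas a median venous-like cell held 1 and 2.

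The arterial level was 4.06-fold the venous level (95% interval 2.90 to 5.68), a log2 difference of 2.02 with SE 0.225 and an edgeR adjusted p of 7.94e-06. Of 14325 genes tested, 2976 (20.8%) were called in that comparison, 11.3% higher and 9.49% lower, and 234 of those higher in arterial-like cells had a larger fold than Mecom. The log2 difference lay between 1.47 and 2.15 over 18 alternatives, and the largest adjusted p among the 16 that gave one was 0.00392. With each library left out in turn there was no test, and the log2 differences were 1.89 and 1.99.

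The class names were checked on their markers. Arterial-like cells held 219 and 232 CPM of Gja5, a gap junction protein of arteries, against 6.25 and 5.33 in venous-like cells. Nr2f2, the transcription factor of venous identity, was at 38.3 and 40.8 CPM in arterial-like cells and at 181 and 220 in venous-like cells. These genes took part in clustering, so the values describe the classes and test nothing. The venous name rests on 3 of 12 markers (Tll1, Nrp2 and Adgrg6), of which Tll1 and Adgrg6 lead the cluster. Each marker of the venous list was higher in venous-like than in arterial-like cells in both libraries, but not all by much. Adgrg6 was at 86.4 and 110 CPM against 65.3 and 76.7. Some differed little from other endothelial-like cells, such as Aplnr at 190 and 180 CPM against 170 and 169. With all 4 clusters led by the venous list as the venous side, the log2 difference of Mecom was 2.13 (edgeR adjusted p = 4.23e-06). When cells were called 1 by 1 from their arterial and venous UMIs, without Tll1 and Adgrg6, it was 1.75 (edgeR adjusted p = 6.60e-05). In the same call with all markers it was 1.75 as well (edgeR adjusted p = 6.69e-05), and 27.6% and 23.0% of the cells lay within 1 UMI of the limit.

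**Figure D2:**
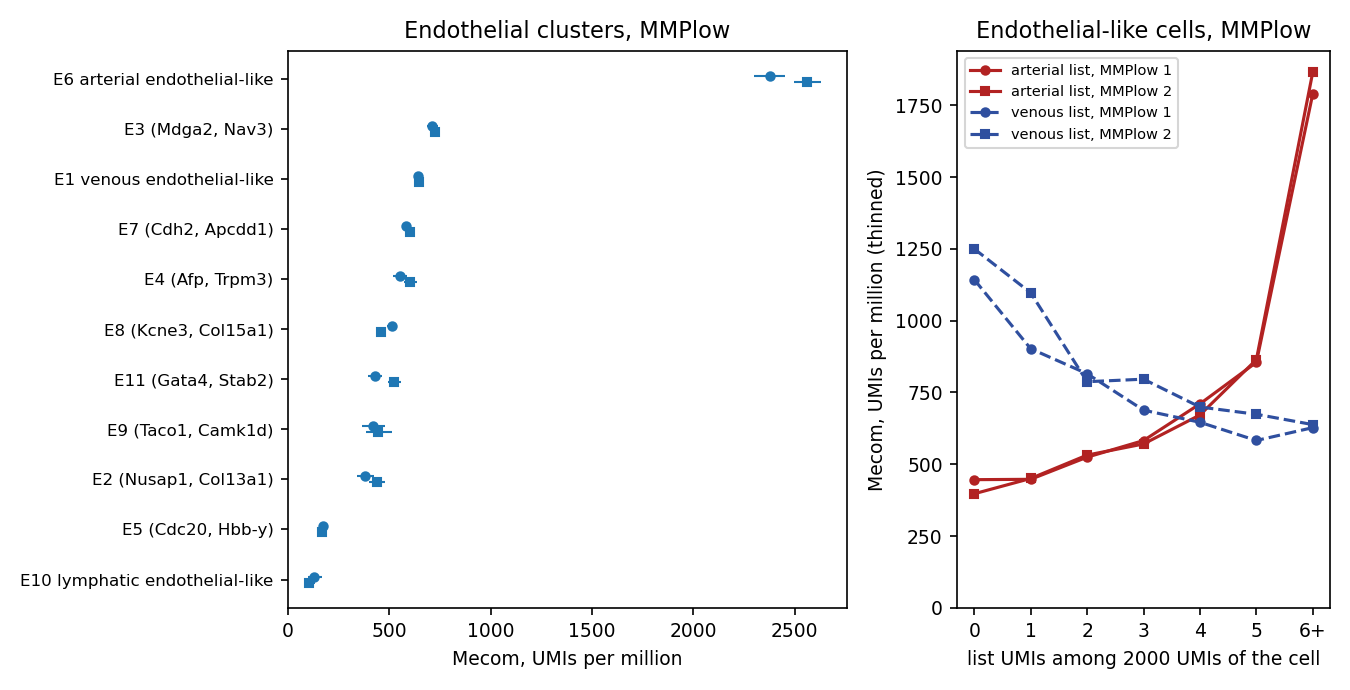
Left, Mecom in CPM in the 11 endothelial clusters of MMPlow, circles for library 1 and squares for library 2, with exact 95% Poisson intervals. Unnamed clusters carry 2 leading genes. Right, Mecom after thinning to 2000 UMIs per cell, by the number of arterial or venous list UMIs in the cell. The arterial-like cluster lies at 2376 and 2562, the lymphatic-like cluster at 128 and 104, and Mecom reaches 1791 and 1866 in cells with 6 or more arterial list UMIs.

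Across the 11 endothelial clusters of MMPlow, Mecom ranged from the arterial-like cluster down to the lymphatic-like one. The second highest was a cluster led by Mdga2 and Nav3, with 713 and 723 CPM. It was followed by the venous-like cluster and by a cluster led by Cdh2 and Apcdd1 at 583 and 604 CPM, where Apcdd1 is a Wnt-induced inhibitor of Wnt signalling. A cluster led by Gata4 and Stab2, known from liver sinusoidal endothelium, had 429 and 524 CPM. A cluster led by the cell cycle gene Cdc20 and embryonic globin Hbb-y had 174 and 170 CPM, the lowest outside the lymphatic cluster. That cluster also had a low share of UMIs in genes spanning over 100000 bases, 11.3% in each library, against 21.9% and 22.7% in arterial-like and 21.6% and 22.7% in venous-like cells. Mecom spans 596713 bases, and whether this share had a part in its low level was not tested.

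Lymphatic endothelial-like cells, led by Prox1 and Reln, had the lowest Mecom of the endothelium at this clustering. Prox1 is the transcription factor that sets lymphatic identity. The level was 128 CPM (96.5 to 167, 104 cells) in MMPlow 1 and 104 CPM (80.1 to 132, 129 cells) in MMPlow 2. Both values were below every other endothelial cluster of this clustering. At a finer clustering the cluster led by Prox1 and Reln had 194 and 146 CPM. A cluster led by Cdc20 and Cenpf had 151 and 173 CPM there, so in MMPlow 1 the lymphatic cluster was not the lowest. After thinning, 18.3% and 17.8% of these cells held a Mecom UMI. Their UMIs from the 12 endothelial markers were 3520 and 3542 CPM, against 6370 and 6954 in venous-like cells, so Mecom was 3.64 and 2.93 UMIs per 100 marker UMIs, against 10.1 and 9.28. On this measure the cluster led by Cdc20 and Hbb-y, with 3.44 and 3.32 per 100, was below the lymphatic value in MMPlow 1 and above it in MMPlow 2.

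Arterial cells were not uniform. Finer clustering split most of them into 2 groups. One, led by Pde3a, Lama3 and Dkk2, had 3359 and 3853 CPM of Mecom, with 379 and 417 CPM of Gja5 and 91.2 and 105 CPM of the Notch target Hey2. The other, led by Sox6, Gja4 and Vegfc, had 1691 and 1788 CPM of Mecom, with 113 and 129 CPM of Gja5 and 5.99 and 16.3 CPM of Hey2. Prdm16 was at 490 and 464 CPM in the first and at 114 and 115 CPM in the second. In both libraries 100% of the cells of the first fell in the main arterial-like cluster, against 84.3% and 86.9% of those of the second. The second thus holds cells from outside that cluster. Another cluster, led by Abtb2, Unc5b and Sntg2, reached no arterial name, and 3.71% and 3.43% of its cells fell in the main arterial-like cluster. Mecom there was 1195 and 1213 CPM, between the arterial groups and the venous-like cells.

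Single endothelial cells thinned to 2000 UMIs were also split by their marker UMIs. In cells with no UMI from the 18 arterial markers Mecom was at 446 and 397 CPM in the 2 libraries. It was 525 and 532 CPM with 2 such UMIs, 710 and 672 CPM with 4, and 1791 and 1866 CPM with 6 or more. By UMIs of the 12 venous markers it was highest at 0, with 1143 and 1250 CPM. It was 583 and 674 CPM at 5 such UMIs and 628 and 638 CPM at 6 or more, so in MMPlow 1 the lowest level was at 5. Runx1 is the factor required for the emergence of blood from endothelium. Arterial-like cells with a Runx1 UMI had 2877 CPM (53 cells) and 3094 CPM (32 cells) of thinned Mecom, against 2439 and 2741 CPM in those without. Over all endothelial-like cells the values were 785 and 783 CPM with a Runx1 UMI and 679 and 727 CPM without. Cells of 1 library are not replicates, so these splits carry no test.

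Haematopoietic progenitor-like cells had a Mecom level near that of venous-like endothelium and well below arterial-like endothelium. The class was 1 cluster led by Angpt1, Tespa1 and Hlf, where Hlf encodes a transcription factor of blood stem cells. Mecom was 723 CPM (664 to 785, 257 cells) in MMPlow 1 and 574 CPM (531 to 619, 306 cells) in MMPlow 2. Both values were below both arterial values, and they lay on either side of the venous ones. Against arterial-like cells the log2 difference was -2.13 (SE 0.240, edgeR adjusted p = 4.15e-06, with 39.2% of genes called, 18.3% higher and 20.9% lower). Against venous-like cells it was -0.11 (SE 0.236, edgeR adjusted p = 0.786, with 35.5% of genes called, 17.1% higher and 18.4% lower), with a 95% interval of -0.61 to 0.40. Without MMPlow 2 that difference was 0.17, with no test. At a coarser clustering no separate progenitor cluster formed, and cells then given the name had 45.0 CPM.

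The progenitors were uneven in Mecom. After thinning, 45.5% and 41.2% held a Mecom UMI. In the full counts 48.2% and 48.4% held none, and 25 and 27 cells (9.73% and 8.82%) held 50% of the UMIs. In venous-like cells, at a like Mecom level, that share of the UMIs took 15.01% and 17.2% of the cells, and in arterial-like cells, at a higher level, 24.8% and 25.3%. These shares also depend on the number of UMIs per cell and carry no test. Progenitors with an Hlf UMI had 1415 CPM (53 cells) and 1185 CPM (65 cells) of thinned Mecom, against 561 and 400 CPM in those without. Hlf helped to name the class, and this split too has no test.

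Mecom was low in the later blood lineages. Macrophage-like cells had 99.98 and 49.6 CPM in the 2 MMPlow libraries, granulocyte or mast-like cells 71.9 and 38.9, megakaryocyte-like cells 68.0 and 33.1, and erythroid-like cells 25.1 and 15.03. Every one of these values lay below both progenitor values. In macrophage-like cells 1 cluster, led by the chemokine gene Ccl5 and by F13a1, held 211 of 305 and 86 of 212 of the Mecom UMIs, at 298 CPM (134 cells) and 184 CPM (59 cells). Endothelial marker RNA there was 2765 and 2301 CPM. Without that cluster, an alternative chosen after the values were seen, macrophage-like cells had 40.1 and 33.1 CPM of Mecom, and the ratio of the progenitor mean to theirs was 17.7, against 8.67 with it. The progenitor level was 7.69-fold the macrophage level (log2 2.94, SE 0.278, edgeR adjusted p = 8.69e-07, 30.4% of genes called and 12.5% called higher). It was 11.1-fold the granulocyte or mast level (log2 3.47, SE 0.364, edgeR adjusted p = 6.75e-06, 16.5% called and 6.49% called higher). Over megakaryocyte-like cells it was 11.2-fold (log2 3.48, SE 0.296, edgeR adjusted p = 2.13e-07, 36.1% called and 17.7% called higher), and over erythroid-like cells 24.4-fold (log2 4.61, SE 0.326, edgeR adjusted p = 1.15e-08, 54.9% called and 29.6% called higher). Clusters grouped with blood that reached no class name were low or high. The one led by Muc13 and P2ry14 had 58.9 and 53.0 CPM, the one led by Slc25a21 and Kcnn4 37.2 and 31.1, and the one led by Ifitm1 and Cpa3 67.8 and 79.5. The megakaryocyte and progenitor lists were highest in the first of these, and the progenitor list in the second. A cluster led by Gm15261 and P2ry14, also with the megakaryocyte and progenitor lists highest, had 393 CPM (122 cells) and 543 CPM (90 cells). A cluster led by Afp and Ulk4, in which the endothelial list was highest, had 376 CPM (30 cells) and 340.3 CPM (738 cells). Endothelial marker RNA was 3447 and 3401 CPM in the former and 3558 and 2999 CPM in the latter, and its part in their Mecom level was not tested.

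Free RNA from broken cells enters droplets, so the blood levels were set beside endothelial RNA in the same cells. All MMPlow endothelial-like cells together held 10.4 and 10.5 Mecom UMIs per 100 UMIs of the 12 endothelial markers. Macrophage-like cells held 7.48 and 5.29, granulocyte or mast-like cells 5.52 and 4.51, megakaryocyte-like cells 5.85 and 3.31 and erythroid-like cells 6.70 and 3.91. All 8 of these values lay below the endothelial ratio. Within these classes the macrophage-like cluster led by Ccl5 held 10.8 in MMPlow 1, where an erythroid-like cluster led by Hbb-y held 11.1 from 13 Mecom UMIs. In MMPlow 2 both were below the endothelial ratio, and 7 erythroid-like cells of the cluster led by Hbb-bs held 19.4 from 6 Mecom UMIs. The part of free RNA in these levels was not tested. Progenitor-like cells held 50.8 and 44.2 per 100, several times that ratio. Arterial-like cells alone held 38.3 and 38.7 per 100, nearer to the progenitor values. With the share at the ratio of all endothelial-like cells subtracted, the progenitor mean was 506 CPM. That value depends on the ratio taken, and the arterial ratio was not tried. The part of free RNA in the progenitor level was not tested either. Mesenchymal-like cells held 57.0 and 65.8, and epithelial-like cells 43.1 and 49.5.

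**Figure D3:**
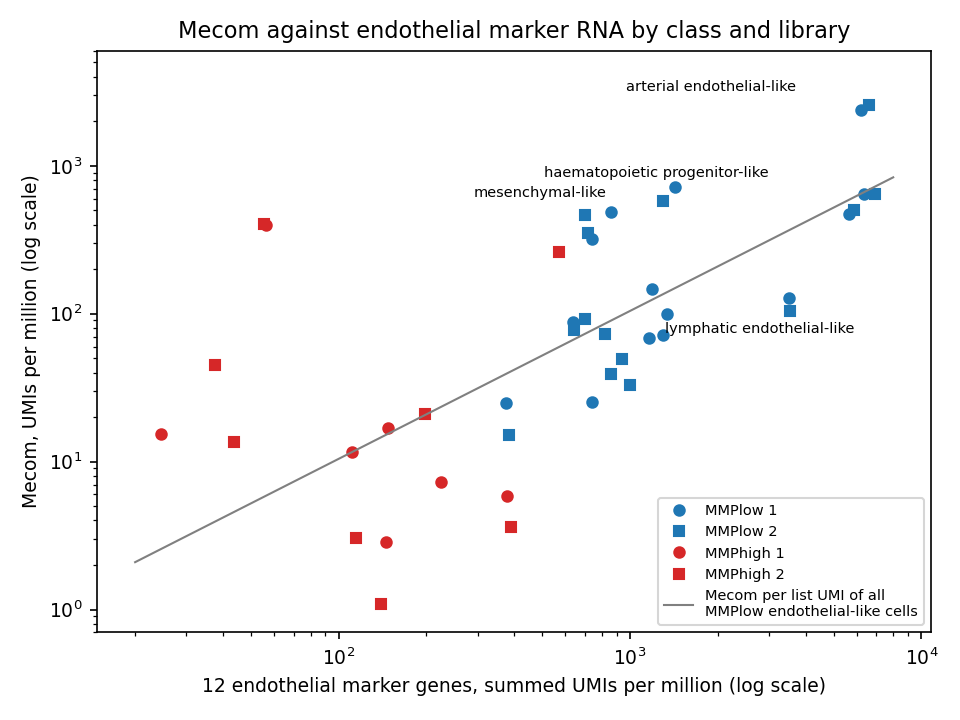
Mecom against the summed level of 12 endothelial marker genes, both in CPM on log scales, with 1 point for each class and library of at least 20 cells and a Mecom count above 0. The line is the Mecom per marker UMI of all MMPlow endothelial-like cells. Arterial, progenitor and mesenchymal-like points lie above the line, and lymphatic endothelial-like points lie below it.

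Outside endothelium and blood, mesenchymal-like cells held Mecom in both gates. The level was 490 CPM (1918 cells) and 462 CPM (2076 cells) in the MMPlow libraries. It was 396 CPM (319 cells) in MMPhigh 1 and 402 CPM (419 cells) in MMPhigh 2. The MMPhigh values were both lower, and the log2 difference of -0.20 (SE 0.0994, 95% interval -0.42 to 0.01) had an edgeR adjusted p of 0.183, with 19.0% of genes called (7.17% higher and 11.8% lower). Without MMPhigh 2 it was -0.21 (adjusted p = 0.292), and with the stricter cell filter it turned to 0.12 (adjusted p = 0.486). Endothelial marker RNA in the same cells was 859 and 701 CPM in MMPlow and 56.4 and 55.5 CPM in MMPhigh. At the endothelial ratio that RNA would carry 89.3 and 73.7 CPM of Mecom in MMPlow and 6.32 and 6.45 CPM in MMPhigh. With this share subtracted the group means were 394 and 393 CPM. The ratio is that of all endothelial-like cells of each library, and these means depend on it. The part of this RNA in the gate difference was not tested.

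The mesenchymal level varied by cluster, and the clusters went both ways between the gates. A cluster led by the cartilage collagens Col2a1 and Col9a1 had 918 and 915 CPM in MMPlow and 616 and 886 CPM in MMPhigh. One with Zic1, a zinc finger factor of the dorsal somite, among its 3 leading genes had 1015 and 924 CPM in MMPlow and 823 CPM in MMPhigh 2. A small cluster led by Prdm6 and the collagen gene Col12a1 had 1073 and 754 CPM in MMPlow, and endothelial markers were its second highest list. At the low end, a cluster led by Gata4 and Wt1, factors of the gonadal ridge and mesothelium, had 110 and 101 CPM in MMPlow and 46.7 and 78.9 CPM in MMPhigh. The lowest in MMPlow, led by Ppp2r2b and Ptn, had 94.4 and 79.8 CPM, and it was higher in MMPhigh at 109.6 and 194 CPM. A cluster led by Col25a1 and Hpse2 was also higher in both MMPhigh libraries, at 670.5 and 845 CPM against 436 and 527. One led by Tbx15 and Tmem132c was lower in both, at 266 and 352 CPM against 602 and 534. These cluster values carry no test. Within mesenchyme 9.38% and 9.39% of MMPlow cells held 50% of the Mecom UMIs.

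**Figure D4:**
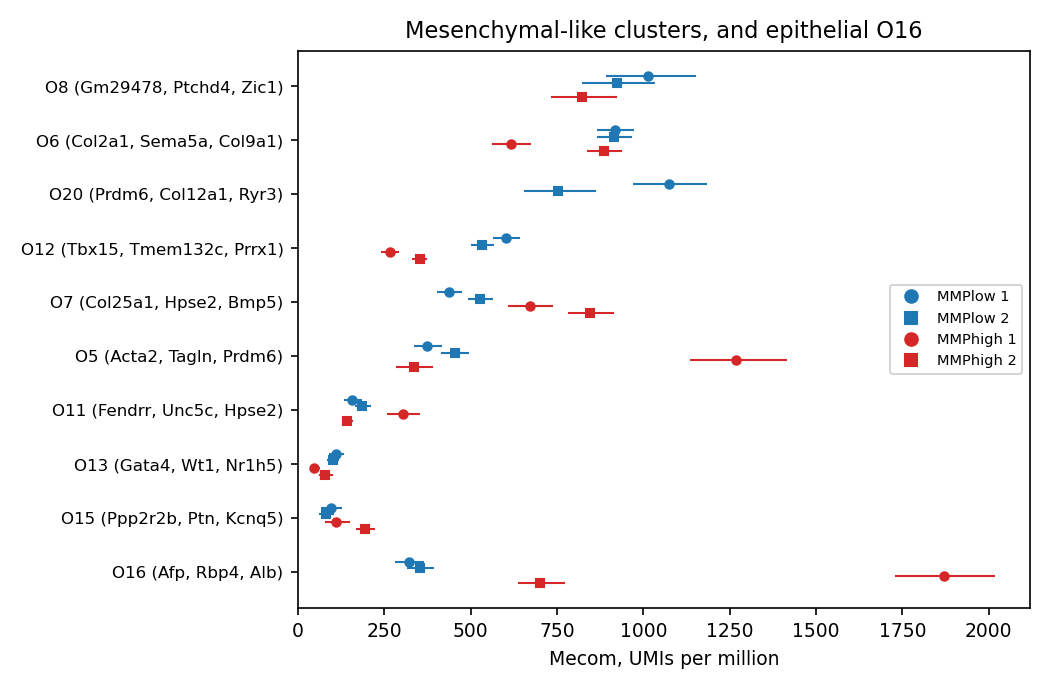
Mecom in CPM in the 9 mesenchymal-like clusters and the epithelial-like cluster O16, by library, for libraries with at least 10 cells, with exact 95% Poisson intervals. Labels give the 3 leading genes of each cluster. The clusters led by Zic1 and Col2a1 lie between 616 and 1015, and those led by Gata4 and by Ppp2r2b below 200.

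The epithelial-like class was a single cluster led by Epcam, Krt18 and Krt8 together with Afp, Rbp4, Alb, Apoa2 and Ttr, plasma protein genes of liver and yolk sac, so no mesonephric name is used for it here. Mecom was 320 CPM (167 cells) and 354 CPM (188 cells) in MMPlow. In MMPhigh it was 1870 CPM (16 cells) and 702 CPM (18 cells), and both values were above both MMPlow values. A single cell of MMPhigh 1 held 445 of the 647 Mecom UMIs there. Without the highest cell of each, the MMPhigh levels were 934 and 502 CPM. With the minimum lowered to 10 cells, a choice made after the values were seen, the log2 difference was 1.92 (SE 0.462, 95% interval 0.76 to 3.09) and the edgeR adjusted p was 0.0859, with 6.54% of genes called.

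Over all cells, Mecom was lower in MMPhigh. The group means were 390.6 ± 10.2 CPM in MMPlow and 77.8 ± 11.9 CPM in MMPhigh (SD, n = 2), a log2 difference of -2.29 (SE 0.131, edgeR adjusted p = 3.44e-06, with 53.8% of 20408 genes called, 27.3% higher and 26.5% lower). Without MMPhigh 2, the library that stands apart in depth, it was -2.13 (adjusted p = 1.84e-09). Endothelial-like cells were 48.2% ± 1.22 of MMPlow and 0.362% ± 0.0301 of MMPhigh cells. With the same number of cells of each of 7 classes drawn from every library (1723 cells per library, none of them endothelial) the log2 difference was -0.26, with an edgeR adjusted p of 0.669. Tested singly, as given below, classes of this draw had log2 differences from -3.42 in erythroid-like to -0.20 in mesenchymal-like cells. Mesenchymal-like cells had the highest Mecom level among the classes drawn. In a sum over all cells, fewer cells of a type and less RNA per cell cannot be told apart.

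Within endothelium the gate comparison rests on 15 and 13 cells of MMPhigh. Mecom in all endothelial-like cells was 600 and 636 CPM in MMPlow, and 632 and 872 CPM in MMPhigh. The log2 difference was 0.27 (SE 0.186, 95% interval -0.13 to 0.66, edgeR adjusted p = 0.572), with 1.28% of genes called (0.517% higher and 0.762% lower), and -0.00 without MMPhigh 2 (adjusted p = 0.999). One arterial-like cell held 82 of the 153 Mecom UMIs of MMPhigh 1, and the level without it was 312 CPM. With a stricter cell filter the log2 difference was 0.87 and the adjusted p 0.0154.

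Progenitors of the MMPhigh gate were too few for a test. MMPhigh 1 held 1 such cell, with 14 Mecom UMIs, and MMPhigh 2 held 20 cells with 261 CPM (224 to 302). The MMPhigh 2 value was below both MMPlow values, and 1 of its cells held 73 of the 176 UMIs. Without that cell the level was 158 CPM.

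In the remaining classes the MMPhigh level was lower, and 3 of the 5 tests passed. Without MMPhigh 2 the log2 differences of those 3 were -2.96 to -2.55. The erythroid and megakaryocyte calls were lost under other alternatives, given below. The erythroid level was 2.87 and 1.08 CPM in MMPhigh against 25.1 and 15.03 in MMPlow (log2 -3.42, SE 0.534, edgeR adjusted p = 0.0307, 3.11% of genes called, 1.06% higher and 2.05% lower). The megakaryocyte level was 5.83 and 3.60 CPM against 68.0 and 33.1 (log2 -3.40, SE 0.472, edgeR adjusted p = 0.00304, 12.6% called and 7.57% called lower). The neural level was 16.8 and 13.6 CPM against 147 and 72.9 (log2 -2.75, SE 0.355, edgeR adjusted p = 0.00392, 1.02% called and 0.949% called lower). Macrophage-like cells had 11.6 and 3.07 CPM against 99.98 and 49.6, or 40.1 and 33.1 without the cluster led by Ccl5 (for all cells log2 -3.24, SE 0.923, edgeR adjusted p = 0.127, 25.3% called and 11.6% called lower). With the replicate number as a block, that difference was -3.28 with an adjusted p of 7.59e-08. It was called in 5 further alternatives, with log2 differences between -4.94 and -2.40. Those were DESeq2, the stricter cell filter, no doublets removed, and each MMPhigh library left out. Muscle progenitor-like cells had 15.3 and 44.8 CPM against 87.3 and 77.7 (log2 -1.16, SE 0.338, edgeR adjusted p = 0.192, 2.04% called and 1.81% called lower). That difference was called without MMPhigh 1 (-0.83, adjusted p = 0.00396), without MMPhigh 2 (-2.27, adjusted p = 1.03e-06) and with no low-count filter (-1.10, adjusted p = 6.46e-04). Germ cell-like cells were under the count filter for Mecom, with 25.5 and 92.1 CPM in MMPlow and 7.34 and 21.1 CPM in MMPhigh. Of the genes tested there, 6.21% were called higher and 5.34% lower.

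Endothelial marker RNA moved with these differences. It was 374 and 385 CPM in erythroid-like cells of MMPlow and 145 and 139 CPM in those of MMPhigh. In megakaryocyte-like cells it was 1164 and 1000 CPM against 379 and 391, and in neural-like cells 1189 and 820 CPM against 148 and 43.8. Macrophage-like cells had 1337 and 937 CPM of it in MMPlow and 111 and 115 CPM in MMPhigh, and muscle progenitor-like cells 635 and 643 CPM against 24.6 and 37.5. Its part in the lower Mecom was not tested. The erythroid call was lost without MMPlow 1 (log2 -2.95, adjusted p = 0.0740) or MMPlow 2 (-3.74, 0.198), with the looser cell filter (-2.67, 0.519) and with the top 6% of doublet scores removed (-3.49, 0.110), and the megakaryocyte call without MMPlow 1 (-2.82, 0.0624). The makeup of these classes differed between libraries too. In the erythroid class 641 of 763 cells of MMPhigh 1 were in a cluster led by adult globin Hbb-bs, and 311 of 318 cells of MMPhigh 2 in one led by Slc25a21, which also held 210 of 243 and 427 of 467 cells of MMPlow 1 and 2. Most macrophage-like cells of MMPhigh 1 (1009 of 1349) were in a cluster led by Aif1 and C1qb, while 475 of 878 and 642 of 1057 in MMPlow were in one led by Gm2245 and F13a1. Within the Aif1 cluster Mecom was 29.6 and 24.5 CPM in MMPhigh, and 0 and 25.8 CPM, from 0 and 2 UMIs, in the 17 cells of each MMPlow library, so the gates overlapped in that cluster. In the cluster led by Mrc1 and Fcrls they did not. Mecom there was 32.1 and 27.4 CPM in MMPlow (232 and 293 cells) and 1.13 and 1.42 CPM in MMPhigh (176 and 433 cells). In the one led by Ctss and Mpeg1 it was 27.1 and 13.1 CPM in MMPlow, from 2 and 3 UMIs, and 1.69 and 0.583 CPM in MMPhigh. These cluster values carry no test. The macrophage-like cluster led by Ccl5 had no cell in MMPhigh, and without it the MMPlow macrophage mean was 36.6 CPM against 74.8 with it. Of megakaryocyte-like cells, 118 of 125 and 84 of 87 in MMPhigh were in a cluster led by the platelet chemokine genes Pf4 and Ppbp, while 551 of 714 and 497 of 802 in MMPlow were in one led by Itgb3 and Thbs1. Within the Pf4 cluster Mecom was 57.6 and 32.7 CPM in MMPlow and 6.37 and 3.30 CPM in MMPhigh. A single cell held all 7 Mecom UMIs of the megakaryocyte-like cells of MMPhigh 1. Of neural-like cells, 709 of 774 in MMPhigh 1 were in a cluster led by Crabp1 and Igfbpl1, while 160 of 180 and 166 of 182 in MMPlow and 107 of 120 in MMPhigh 2 were in one led by Sox2ot and Glra1. Within the Sox2ot cluster Mecom was 167 and 63.9 CPM in MMPlow and 10.7 and 12.9 CPM in MMPhigh. Another 8 clusters had the neural list highest and stayed unnamed, so they are outside the neural test. One of them, led by Thsd7b and Kcnmb2, overlapped between the gates at 95.97 and 181 CPM in MMPlow and 88.6 and 104 CPM in MMPhigh. That cluster held 11.0% and 25.8% of all Mecom UMIs of MMPhigh 1 and 2. The other 7 had between 10.5 and 243 CPM in MMPlow and between 3.15 and 99.5 CPM in MMPhigh.

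The other PR domain genes encode transcriptional regulators, most of them with zinc fingers and several of them histone methyltransferases. Between arterial-like and venous-like endothelium, 11 of the 14 could be tested, 2 were called higher and 1 lower, against 20.8% of all genes called. Their median log2 difference was -0.09, against 0.02 over all genes. Prdm16, the relative nearest to Mecom, was at 254 and 237 CPM in arterial-like and 9.85 and 9.21 CPM in venous-like cells, and the groups did not overlap (log2 4.76, SE 0.144, edgeR adjusted p = 6.86e-42). Prdm1, also known as Blimp1, was at 54.7 and 43.4 CPM against 6.44 and 6.95 (log2 2.92, SE 0.216, edgeR adjusted p = 2.09e-19). Prdm10 was lower, at 50.9 and 56.7 CPM against 69.6 and 78.1 (log2 -0.37, SE 0.121, edgeR adjusted p = 0.0180). Unlike Mecom, these genes could take part in forming the clusters, so these folds describe classes that may be partly built on them. Prdm16 was among the 10 leading genes of the arterial-like cluster.

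**Figure D5:**
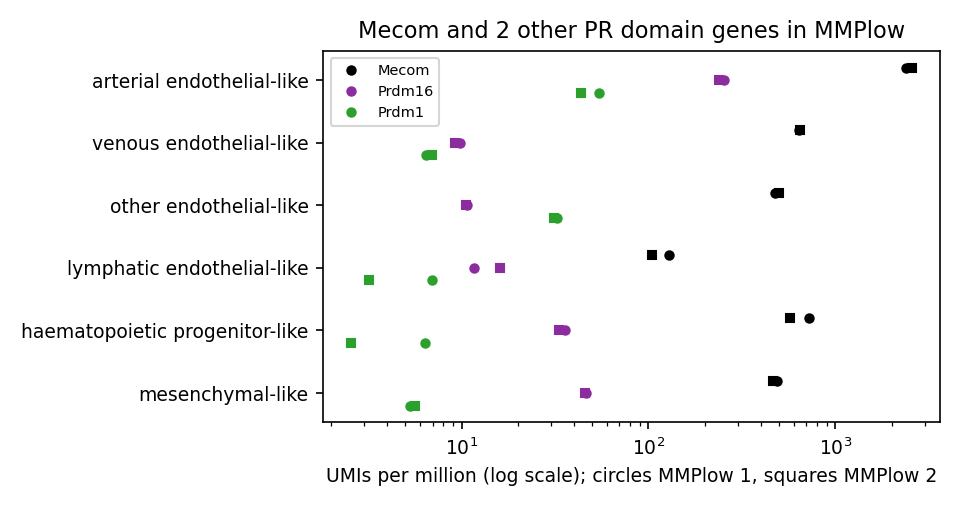
Mecom, Prdm16 and Prdm1 in CPM on a log scale in 6 classes of MMPlow, circles for library 1 and squares for library 2. Each gene is to be read along the classes, since levels of different genes are not compared here. All 3 are highest in arterial-like endothelium, and Prdm1 is also high in other endothelial-like cells at 32.6 and 31.4.

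Prdm16 and Mecom differed outside arteries. In progenitor-like cells Prdm16 was at 35.8 and 33.4 CPM, below the arterial level (log2 -3.003, edgeR adjusted p = 4.52e-26) and above the venous level (1.75, edgeR adjusted p = 6.65e-09). Mecom in progenitors did not pass the test against venous-like cells. Of the family, 1 gene was higher and 2 were lower in progenitors than in arterial-like cells, with Prdm1 the other lower one (log2 -3.71) and Prdm15 the higher (0.69). These 3 of 11 stand beside 39.2% of all genes called. Against venous-like cells 1 was higher and 1 lower, Prdm10 (-0.74), beside 35.5% of all genes. Over all cells, 10 of 14 family genes were called between the gates, 4 higher in MMPhigh and 6 lower, where 53.8% of all genes were called (27.3% higher and 26.5% lower). Within mesenchymal-like cells only Prdm6 was called of the 10 tested (log2 -0.81, edgeR adjusted p = 5.28e-04), where 19.0% of all genes were called. Within endothelial-like cells only Prdm1 of 11 was called (1.24, edgeR adjusted p = 0.0288), beside 1.28% of all genes.

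The cofactor list holds 11 chromatin proteins reported to bind the Mecom protein, and all of them were tested. In arterial-like against venous-like cells 2 were higher and 1 lower, beside 11.3% of all genes higher and 9.49% lower. These were the acetyltransferase Kat2b (log2 1.16, 50.9 and 49.2 CPM against 22.4 and 24.7), the TGF-beta mediator Smad3 (0.40) and the histone methyltransferase Suv39h1 (-0.65). The median log2 difference of the list was 0.08, against 0.02 over all genes. In progenitor-like against venous-like cells 4 were higher and 2 lower, beside 17.1% and 18.4% of all genes. The DNA methyltransferase Dnmt3b had a log2 difference of 3.10 (edgeR adjusted p = 7.08e-30), at 215 and 225 CPM against 23.9 and 24.1, and Kat2b one of 1.41. The corepressors Ctbp1 and Ctbp2 were not called in either of these comparisons. Between the gates, 6 of 11 were called over all cells, 5 of them higher in MMPhigh, where 53.8% of all genes were called and 27.3% called higher. Within mesenchymal-like cells 2 of 11 were called, both higher (Smad3 0.46 and Hdac1 0.37), where 19.0% of all genes were called and 7.17% called higher.

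Of 8 reported target genes 7 could be tested in MMPlow. In arterial-like against venous-like cells 4 were higher and 1 lower, beside 11.3% and 9.49% of all genes, with a list median of 0.39 against 0.02 over all genes. Setbp1, whose protein binds the oncoprotein SET, was at 302 and 312 CPM in arterial-like and 65.8 and 56.1 CPM in venous-like cells (log2 2.42, SE 0.110, edgeR adjusted p = 7.86e-31). The blood stem cell factor Gata2 (0.74) and the homeobox gene Meis1 (0.62) were higher too. Itga6, an integrin that binds laminin, was lower at 109 and 120 CPM against 291 and 314 (log2 -1.32, SE 0.109, edgeR adjusted p = 3.34e-17). In progenitor-like cells 5 of the 7 were higher than in venous-like cells and 2 lower, beside 17.1% and 18.4% of all genes, with a list median of 0.86 against -0.00 over all genes. The largest were Angpt1 (5.93), Meis1 (3.14) and Setbp1 (2.42), and Angpt1 leads that cluster. Against arterial-like cells 2 were higher, Angpt1 (5.54) and Meis1 (2.52), and 1 was lower, beside 18.3% and 20.9% of all genes. Setbp1 in mesenchymal-like cells was at 475 and 507 CPM, above its level in each of the endothelial classes.

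Of 11 factors that act in blood and endothelium, 4 were higher in arterial-like than in venous-like cells and 1 was lower, beside 11.3% and 9.49% of all genes, with a list median of 0.32 against 0.02 over all genes. Sox17, an arterial and haemogenic factor, had a log2 difference of 2.19 (126 and 170 CPM against 31.6 and 37.0), and Ikzf2, a zinc finger factor, one of 1.72. The blood and vascular factors Lmo2 (0.53) and Fli1 (0.32) were higher and Nr2f2 was lower (-2.27). Sox17 and Nr2f2 are among the markers that named these classes. In progenitor-like cells 5 were higher and 4 lower than in venous-like cells, beside 17.1% and 18.4% of all genes. Hlf (5.98), Runx1 (5.02), Ikzf2 (4.88) and Gfi1 (4.04) were higher, and of these 4 all are markers of the progenitor list. Within mesenchymal-like cells 7 of 10 were lower in MMPhigh, and 1 was higher (Nr2f2, 1.04), beside 11.8% and 7.17% of all genes, with Sox17 at a log2 difference of -5.87 and Tal1 at -4.10, alongside the endothelial marker RNA given above.

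The genes whose pattern was most like that of Mecom over 28 sums (14 classes in 2 MMPlow libraries) were ranked by Pearson correlation of log2(CPM + 10) among 7109 genes. The 10 nearest were Gulp1 (r = 0.92), Fstl1, Dab2ip, Vegfc, Ablim1, Sox13, Zfp711, Nos1ap, Gask1b and Armcx4 (r = 0.84). Gulp1 encodes an adaptor of engulfment, Fstl1 a secreted follistatin-like protein and Vegfc a growth factor for lymphatic vessels. All 10 were highest in arterial-like cells, and Gulp1 ranged from 321 CPM there to 7.61 in its lowest class. Prdm16 ranked 62nd with r = 0.77. Over 22 sums of the 11 endothelial clusters and 5113 genes the nearest were Pced1b (r = 0.92), Dab2ip (0.91), Pik3r3, Epas1, Tmcc3, Nrp1, Itpr3, Pdlim5, Mrtfb and Epha4 (0.88). In that ranking Prdm16 was lower, at rank 263 with r = 0.68. Dab2ip, a Ras GTPase activating protein, was in both lists. Nrp1 and Vegfc belong to the arterial markers. The points share libraries and depth and each pair of sums comes from the same class, so these correlations are descriptions.

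Mecomos, an antisense gene annotated on the opposite strand at chr3:30012379-30054808, lies inside the Mecom span. It held 1021 UMIs in retained cells, and in the arterial, venous, progenitor and mesenchymal-like cells of MMPlow its UMIs were between 0.896% and 2.34% of those of Mecom. Its level was 42.1 and 33.7 CPM in arterial-like and 14.97 and 11.96 CPM in venous-like cells. Whether reads were assigned by strand is not stated in the sources used here, so these cannot be told apart from reads of Mecom.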

How the data were processed

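The authors deposited matrices of raw UMI counts, whole numbers with no normalization, 1 value for each gene in each barcode. Libraries used the 10x 3' v3 kit per the labels' protocols. The matrices come from Cell Ranger 7.0.1 per the file headers, whereas the submitters' processing notes name Cell Ranger 2.1.1 and the build mm10. Whether intronic reads were counted is not stated in the sources used here. Totals per library were 120168395, 102083810, 51800709 and 112739406 UMIs.

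Barcodes with at least 2000 UMIs, 1000 genes and under 25% of UMIs from 13 mitochondrially encoded genes were kept. Scrublet in scanpy 1.11.5 marked 982, 1135, 0 and 94 doublets. It found none in MMPhigh 1 and is taken not to have worked there, so removing the top 6% of scores was an alternative. Variable genes were chosen without Mecom, mitochondrially encoded genes, ribosomal protein genes and genes found in very few cells. Clustering used 2000 variable genes, 30 components, 15 neighbours and Leiden resolution 1, first on all cells and then within 3 compartments. The second step was added because 1 clustering merged progenitors with granulocytes. Of 55 clusters, 17 stayed unnamed, and these held 21.6% of MMPlow and 30.1% of MMPhigh cells. A name needed a mean log2 fold of its markers of 0.5, a lead of 0.25 over the next list and 3 markers at a log2 fold of 1. It also needed 1 marker among the 10 leading genes or 7 at that fold, with no other list holding more of the leading genes. These limits were set after clusters had been seen.

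UMIs were summed per class and library (at least 20 cells, 10 for endothelium) and tested with edgeR 4.0.16 under R 4.3.3: TMM, filterByExpr, robust quasi-likelihood F-test, two-sided, Benjamini-Hochberg adjustment over all genes tested, threshold 0.05. MMPlow fits held all 14 classes, with library as a term. DESeq2 1.42.0 was an alternative. Intervals for levels are exact Poisson and cover counting error only. The gate tests in progenitor-like cells and their interaction could not be fitted with 1 cell in MMPhigh 1. Scripts were tested on simulated data.

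The gene and the lists were chosen with earlier results of these data known. By the rule for named genes, Mecom is given in every comparison, with Prdm16 and the PR domain genes called between arterial and venous cells, up to 4 called members of each other list, and the 10 genes most like Mecom. Clusters, subclusters and genes named beyond it were chosen after their values were seen. The values of 1 member of the target list are not reported here.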

Additional observations from a re-analysis of the deposited data

Results flagged for a closer look

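In the fit over all libraries, the change of Mecom between the gates differed between mesenchymal-like and endothelial-like cells. That call was lost under several alternatives given below. The log2 difference of MMPhigh against MMPlow was -0.20 in mesenchymal-like and 0.27 in endothelial-like cells, and a class by gate term gave -0.49 (SE 0.123, 95% interval -0.74 to -0.25) with an edgeR adjusted p of 0.00432, where 5.19% of 15743 genes were called. Both mesenchymal MMPhigh values were below both MMPlow values, while 1 of the 2 endothelial MMPhigh values was above both MMPlow values and the other lay between them. The endothelial side rests on 28 MMPhigh cells, and 1 cell held 82 of the 153 Mecom UMIs of MMPhigh 1. Endothelial marker RNA in mesenchymal-like cells was 859 and 701 CPM in MMPlow and 56.4 and 55.5 CPM in MMPhigh. With its share at the endothelial ratio subtracted, the mesenchymal means were 394 and 393 CPM. These means depend on the ratio taken, and the part of this RNA in the gate difference was not tested. Without the arterial-like class the term was -0.39 with an adjusted p of 0.780. With 1 library left out in turn it lay between -0.66 and -0.22, and the adjusted p was 0.997, 0.995 and 0.719 without MMPlow 1, MMPlow 2 and MMPhigh 2. This comparison was chosen after the values were seen. Another class by gate term, epithelial-like against mesenchymal-like cells, was chosen in the same way and not called. It was 1.94 (SE 0.440, edgeR adjusted p = 0.0902), with 3.07% of genes called.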

How the results depend on the processing

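Of 373 alternative values over 36 results, 312 were counted as the same. These kept their direction and, where there was a test, their side of the threshold, or for levels and counts stayed near the reported value. Class comparisons with an MMPlow library left out have no test, so for them only the direction was judged. A change of sign was found for 19 values of 10 results, none of them called as reported and 1 called after the change. That 1 was muscle progenitor against macrophage-like cells in MMPlow, at 0.15 as reported and -0.79 with no doublets removed (-0.16 with the stricter cell filter). With no doublets removed, lymphatic against neural was -0.31, germ cell against granulocyte or mast -0.027 and granulocyte or mast against megakaryocyte -0.025. With the looser cell filter the last was -0.041 and macrophage against germ cell -0.79. Granulocyte or mast against megakaryocyte was also -0.0080 without the library term and -0.0049 with no low-count filter, and lymphatic against neural was -0.021 with DESeq2 size factors. The mesenchymal gate difference was 0.12 with the stricter cell filter. With each MMPlow library left out, the ranges were -0.17 to 0.17 for progenitor against venous, -0.042 to 0.12 for other endothelial against mesenchymal, -0.20 to 0.51 for lymphatic against neural and -0.092 to 0.75 for neural against muscle progenitor. They were -0.20 to 0.65 for muscle progenitor against macrophage, -0.89 to 1.97 for macrophage against germ cell and -1.498 to 1.24 for germ cell against granulocyte or mast. The arterial against venous difference stayed called in each alternative that gave a test. Keeping 7 classes, none of them endothelial or progenitor, and drawing equal cells of each moved the all-cell gate difference to -0.26, 2 changes made together, and the stricter cell filter moved the endothelial gate difference to 0.87. The class by gate term of mesenchymal-like against endothelial-like cells was -0.39 without the arterial-like class. It lay between -0.66 and -0.22 with each library left out. Leaving out a library gave -2.47 to -2.13 for the gate difference over all cells and -0.0012 to 0.47 for that in endothelial-like cells. Without the cluster led by Ccl5 and F13a1 the macrophage mean was 36.6 CPM (74.8 as reported). Mean levels moved by more than the spread between libraries as follows. Thinning gave 2622 CPM in arterial-like, 663 in venous-like and 527 (MMPlow) and 407 (MMPhigh) in mesenchymal-like cells. Resolution 0.5 gave 2618 in arterial-like, 596 in venous-like and 45.0 in progenitor-like cells. Resolution 2 gave 2331 in arterial-like, 881 in venous-like and 592 (MMPlow) and 466 (MMPhigh) in mesenchymal-like cells. Subtracting the share at the endothelial ratio gave 506 in progenitor-like, 261 in epithelial-like and 394 (MMPlow) and 393 (MMPhigh) in mesenchymal-like cells. The cause of these moves was not tested. Genes called between arterial and venous-like cells numbered 1085 under the stricter filter (2976 as reported). Between the gates over all cells they numbered 5961 at 10 CPM or more and 535 with equal cells of those 7 classes (10981 as reported).

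The replicate numbers are not said to pair libraries. Deviations of same-numbered libraries correlated at 0.116 over genes, a single value from 2 pairs. With the replicate number as a block the gate difference over all cells was -2.30 (edgeR adjusted p = 1.14e-05) with 10596 genes called, and the macrophage difference became -3.28. Without the library term the arterial against venous difference was 2.02. Depth limits classes of MMPhigh with few cells: the granulocyte or mast-like class had 5 and 14 cells and no Mecom UMI, which allows up to 35.1 and 9.27 CPM by the exact Poisson limit.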
